A study of Mus musculus with 6 samples.

Results

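The 8 genes described here encode 6 ETS factors (Spi1, Spib, Ets1, Fli1, Erg and Elf1) and 2 interferon regulatory factors (Irf4 and Irf8). They were taken by name from the 22359 protein-coding genes of GENCODE M1 on the mouse assembly mm9, where Spi1 carries its older symbol Sfpi1. For each gene, every entry of 3 deposited peak lists was collected over the gene body and 20 kb on each side. The lists came from ChIP-seq for H3K27ac, H3K4me3 and Pax5 in bone marrow pre-B cells, with 1 library for each list. All cells came from C57BL/6 mice of both sexes aged 6 to 14 wk that lacked RAG and carried a rearranged IgM transgene (RAG-/- µ+), which in the study's methods is a human heavy chain transgene on a Rag1-/- background. Since these mice cannot rearrange their own immunoglobulin genes, their B lineage cells collect at the pre-B stage, and the cells are a model of that stage rather than of normal bone marrow. There was no second condition and no replicate, so none of the differences below has a replicate check and no test was made. The 3 input samples were not analysed here.

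ETS factors share a DNA-binding domain that reads a GGAA core. PU.1, the product of Spi1, and its close relative Spi-B can recruit IRF4 or IRF8 to composite elements in which the ETS core stands beside a GAAA core, and such elements lie in the immunoglobulin light chain enhancers. Pax5 is the factor that commits cells to the B lineage. H3K4me3 marks active or poised promoters, and H3K27ac marks active promoters and enhancers.

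The sequences under the Pax5 peaks that the results turn on are given first, so that each can be read beside its values. Each was read from mm9 around the middle of a peak, since the lists give no summit, and is written 5′ to 3′. The first set holds the highest-scoring Pax5 peak of the window of Spib, Fli1, Erg, Irf4 and Irf8, and for Spi1 the peak that lay 13.5 kb upstream of its H3K4me3-marked start. None of them holds the longer motif letters searched for, so all are in lower case.
Spib, chr7:51789347-51789546, plus strand: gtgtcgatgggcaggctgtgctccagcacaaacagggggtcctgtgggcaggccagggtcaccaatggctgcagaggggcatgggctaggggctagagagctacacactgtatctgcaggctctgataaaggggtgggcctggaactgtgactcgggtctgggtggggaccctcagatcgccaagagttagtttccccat
Irf8, chr8:123270536-123270735, plus strand: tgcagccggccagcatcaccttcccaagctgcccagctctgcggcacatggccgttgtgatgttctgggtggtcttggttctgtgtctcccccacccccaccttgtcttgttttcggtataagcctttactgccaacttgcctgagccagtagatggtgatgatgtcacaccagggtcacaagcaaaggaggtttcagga
Erg, chr16:95654105-95654304, plus strand: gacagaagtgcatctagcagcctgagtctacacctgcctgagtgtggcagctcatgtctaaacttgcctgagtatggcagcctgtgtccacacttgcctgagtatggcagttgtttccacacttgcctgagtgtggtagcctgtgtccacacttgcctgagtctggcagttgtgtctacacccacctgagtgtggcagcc
Fli1, chr9:32280737-32280936, plus strand: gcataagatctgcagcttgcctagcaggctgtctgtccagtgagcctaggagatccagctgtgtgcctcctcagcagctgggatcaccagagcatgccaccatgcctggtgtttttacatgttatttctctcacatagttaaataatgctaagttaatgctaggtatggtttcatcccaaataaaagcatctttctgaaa
Irf4, chr13:30841297-30841496, plus strand: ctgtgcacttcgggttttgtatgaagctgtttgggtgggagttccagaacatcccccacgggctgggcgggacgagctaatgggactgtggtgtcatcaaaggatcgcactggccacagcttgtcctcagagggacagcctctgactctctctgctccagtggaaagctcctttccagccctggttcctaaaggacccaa
Spi1, chr2:90923318-90923517, plus strand: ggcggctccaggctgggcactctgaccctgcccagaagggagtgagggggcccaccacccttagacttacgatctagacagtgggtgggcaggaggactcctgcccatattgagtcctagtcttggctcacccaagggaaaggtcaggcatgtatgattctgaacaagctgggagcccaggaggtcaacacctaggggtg

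The second set holds the 100 bases around each match to a longer motif in the Pax5 peaks of the 8 windows. Only the 300 bp around the middle of each peak were searched. Capitals mark the match, which is the Pax5-type core GCGTGAC in the first 3 sequences, the composite of GGAA and GAAA with 2 bases between them in the fourth, and the PU.1-type site GAGGAAGT in the fifth.
Spib, 4.36 kb upstream of the start, chr7:51791755-51791854, plus strand: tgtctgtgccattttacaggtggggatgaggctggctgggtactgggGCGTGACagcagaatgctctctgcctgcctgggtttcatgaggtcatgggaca
Erg, 0.294 kb upstream of the marked start, chr16:95681132-95681231, plus strand: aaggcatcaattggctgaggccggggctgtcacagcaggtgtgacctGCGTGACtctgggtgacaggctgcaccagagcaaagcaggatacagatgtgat
Ets1, 79.9 kb upstream of the marked start, chr9:32423653-32423752, minus strand: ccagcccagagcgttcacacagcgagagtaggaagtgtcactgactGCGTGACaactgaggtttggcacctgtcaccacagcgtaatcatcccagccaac
Ets1, 43.7 kb upstream of the marked start, chr9:32459980-32460079, plus strand: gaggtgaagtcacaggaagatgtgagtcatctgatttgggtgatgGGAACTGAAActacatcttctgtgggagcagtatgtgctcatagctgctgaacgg
Irf4, 37.1 kb downstream of the start, chr13:30878113-30878212, plus strand: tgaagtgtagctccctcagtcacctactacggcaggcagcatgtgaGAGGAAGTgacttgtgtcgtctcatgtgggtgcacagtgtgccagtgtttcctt

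All 8 genes carried H3K27ac, H3K4me3 and Pax5 at a promoter, defined as at least 1 bp of overlap with the 1000 bp on either side of a start of a protein-coding transcript. Over all protein-coding genes, 48.3% had H3K27ac at a promoter, 52.6% had H3K4me3, 37.4% had Pax5 and 34.3% had all 3. At the outermost annotated start alone, 6 of the 8 genes had H3K27ac, 6 had H3K4me3 and 7 had Pax5, since Ets1 had none of the 3 there and Erg had only Pax5. The shares over all genes above are for any start, and none is given for the outermost start alone. The 8 windows together held 220 H3K27ac peaks, 38 H3K4me3 regions and 47 Pax5 peaks, and none of the windows was empty in any list. At least 1 H3K27ac peak was found in the windows of 68.3% of all genes, at least 1 H3K4me3 region in 65.8% and at least 1 Pax5 peak in 58.2%. Of the 220 H3K27ac peaks, 19 lay at a promoter of the gene, 6 had their middle in an exon, 157 in an intron, 19 in the upstream flank and 19 in the downstream flank. The H3K4me3 regions, which were made by joining 25 bp bins that lie no more than 100 bp apart, were 11 at promoters, 2 in exons, 19 in introns and 6 in the flanks, and of the 47 Pax5 peaks 13 were at promoters, 1 in an exon, 23 in introns, 8 upstream and 2 downstream.

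**Figure D1:**
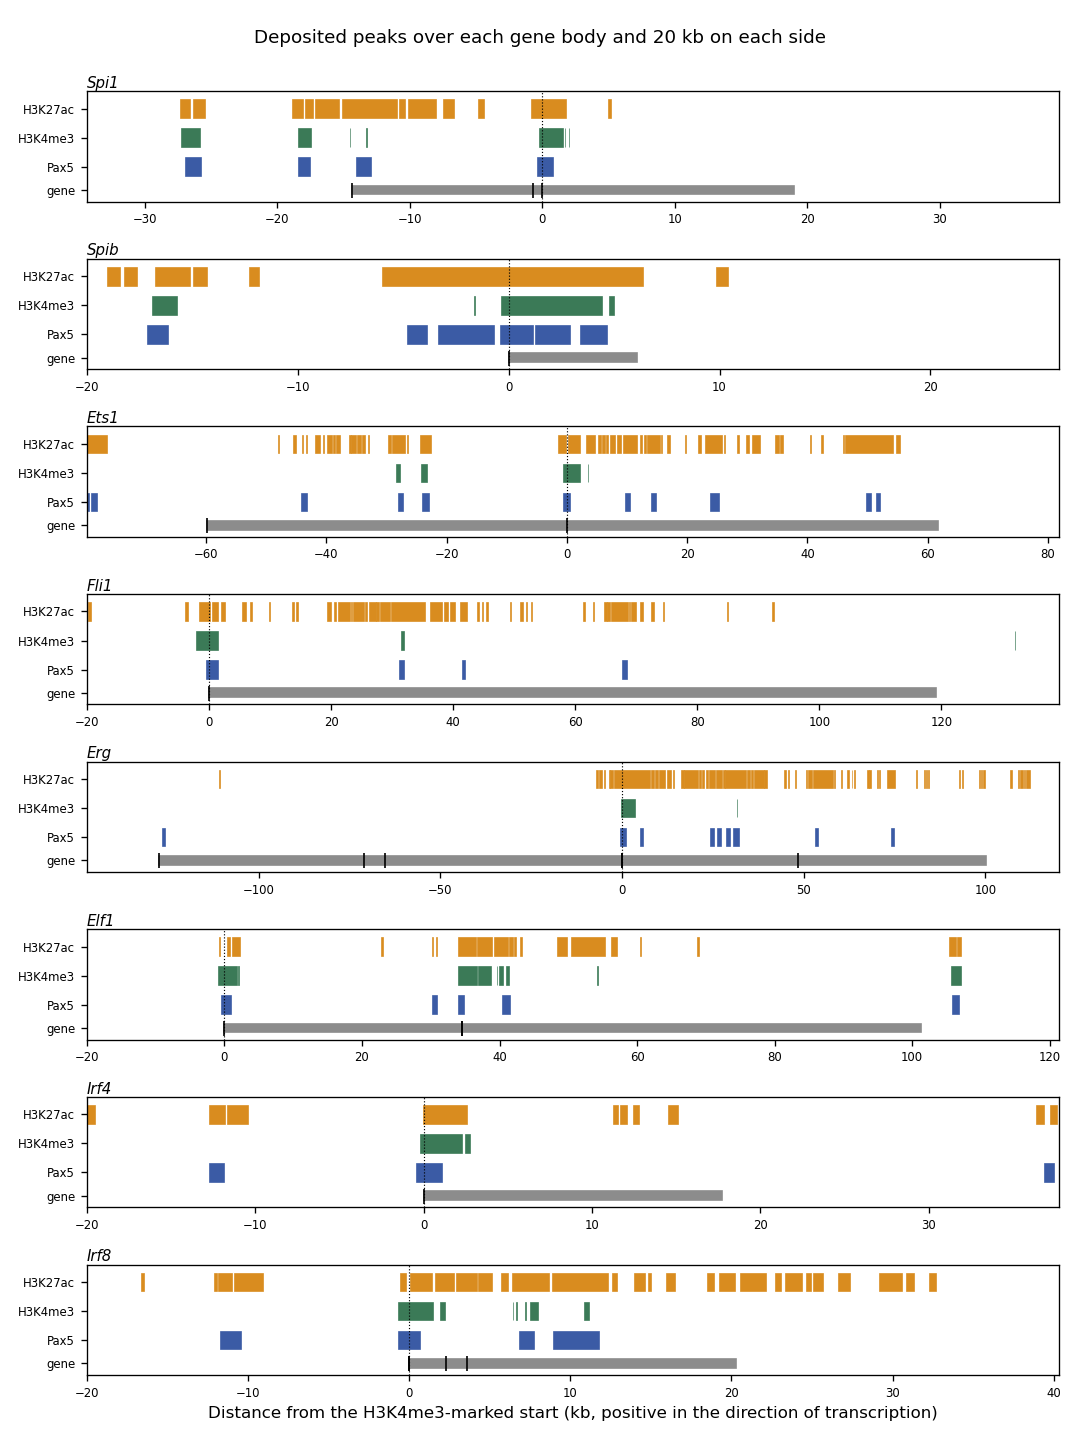
Peaks of the 3 lists (coloured boxes) in each window against the distance in kb from the H3K4me3-marked start, which is positive in the direction of transcription. Grey bars are gene bodies, ticks are annotated starts and the dotted line is the marked start. H3K4me3 and Pax5 cover 0 at all 8 genes, H3K27ac covers it at 5 and lies beside it at Ets1, Elf1 and Irf8, and Ets1, Fli1 and Erg have 47, 43 and 55 H3K27ac peaks, most of them in introns.

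H3K27ac covered a large share of every window. It covered 40.9% of the Irf8 window and 36.8% of that of Spib, and less at Irf4 (13.7%) and Elf1 (14.1%), with 27.6% at Ets1, 21.5% at Spi1, 21.1% at Erg and 20.8% at Fli1. The median protein-coding gene had 2.02%, and the 8 genes stood between the 90.5 and 99.7 percentiles of all genes. Their median was 21.3%.

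Pax5 covered 19.8% of the Spib window, which stood at the 99.9 percentile of all genes, and 10.7% of the Irf8 window, at the 98.3 percentile. The other 6 windows had between 2.52% at Fli1, at the 71.1 percentile, and 6.27% at Ets1, beside a median of 1.12% for all genes. H3K4me3 was nearer to the background, since it covered 13.6% of the Spib window but 1.49% of that of Erg, and the median over all genes was 1.70%. The covered share of H3K4me3 was lowest in the 3 longest windows, those of Erg, Fli1 and Ets1.

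**Figure D2:**
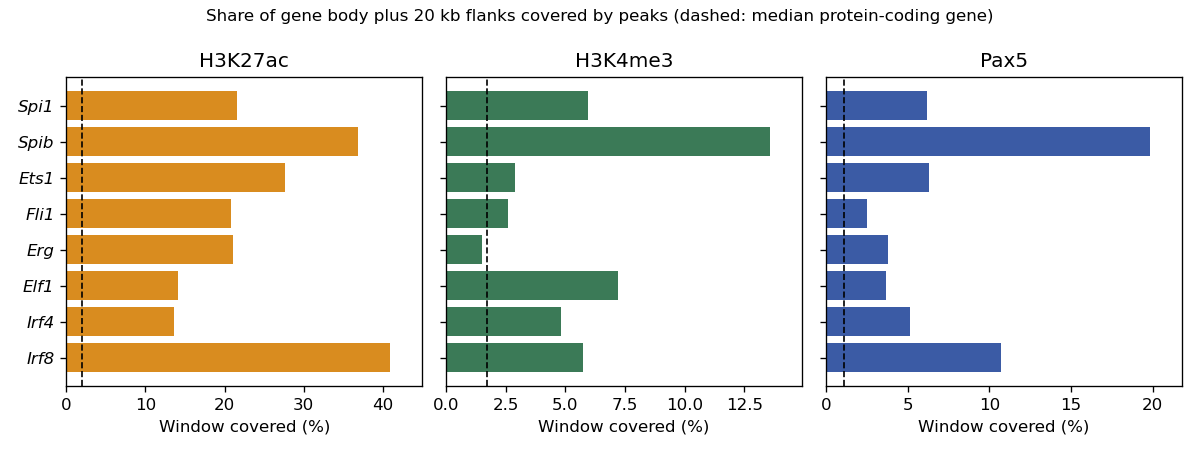
Share of each window (gene body and 20 kb on each side, in %) covered by the peaks of each list, with the median protein-coding gene as a dashed line. Irf8 (40.9%) and Spib (36.8%) have the longest bars for H3K27ac and Spib (19.8%) has the longest for Pax5, and the H3K4me3 bar of Erg (1.49%) ends below the dashed line at 1.70%.

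By percentile, the promoters were spread more widely in Pax5 than in either histone mark. Pax5 peak scores, which are the peak caller's own numbers on a scale that the sources do not name and are compared only within the list, ran from 87.9 to 3214 over the 15445 peaks with a median of 207. The top promoter score was 1764 at Spib and 686 at Erg, whereas Fli1 (362), Ets1 (348), Irf4 (328), Elf1 (321) and Spi1 (268) were near the median of 269 over the 8366 genes with a Pax5 peak at a promoter. At Irf8 the promoter peak scored 93.8, at the 2.35 percentile of these genes. Without replicates it cannot be said which of the 5 middle values differ. The Spib value is that of a peak with its middle 2.01 kb upstream that reached into the promoter, and the peak over the start scored 651. The Spi1 value is from the start 14.4 kb upstream of the marked one, and at the marked start the Pax5 score was 179.

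H3K4me3 at the promoter was widest at Spib, with 4775 bp, and the region at Spi1 was the narrowest of the 8 with 1850 bp. The others were 3925 bp at Erg, 3575 bp at Fli1, 2850 bp at Ets1, 2725 bp at Elf1, 2500 bp at Irf4 and 2125 bp at Irf8, and all were wider than the median of 1475 bp over the 11761 genes with a region at a promoter. The order was different for the H3K27ac score. Spi1 had the highest, at 168, which ranked 88 among 69345 peaks, while Irf8 had 24.0, below the median of 32.1 for genes with H3K27ac at a promoter. Spi1 thus combined the narrowest H3K4me3 region with the highest H3K27ac score.

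**Figure D3:**
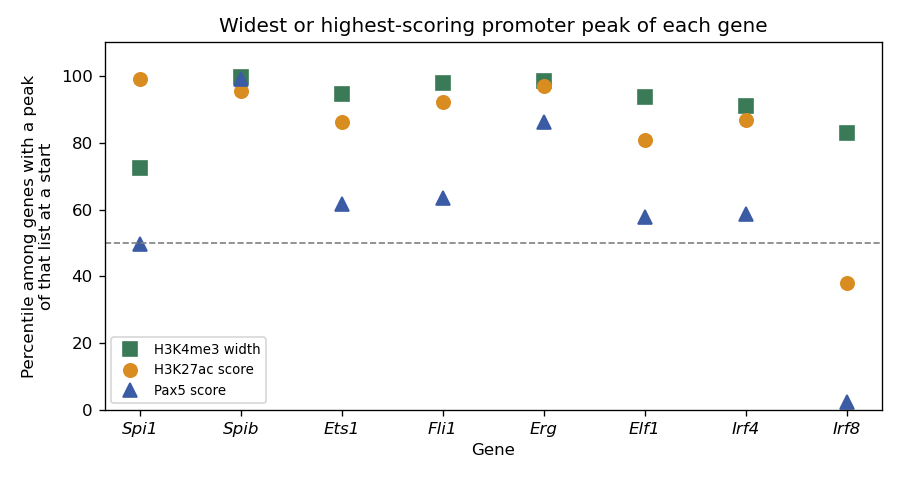
Percentile of each gene's widest promoter H3K4me3 region, highest promoter H3K27ac score and highest promoter Pax5 score among all genes with a peak of that list at a promoter, with the 50th percentile dashed. The H3K4me3 widths lie between 72.3 and 99.5, the Pax5 scores spread from 2.35 at Irf8 to 99.0 at Spib, and Irf8 is the only one of the 8 below the line for H3K27ac (37.9). The Pax5 value of Spib is from a peak with its middle 2.01 kb upstream, and that of Spi1 is from the start 14.4 kb upstream of the marked one.

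Spi1 encodes PU.1, which is needed for the earliest lymphoid and myeloid cells and is kept at a lower level in B cells than in macrophages. Of its 3 annotated starts, the one at chr2:90936937 lay inside the 1850 bp H3K4me3 region, with a Pax5 peak of score 179. The start annotated 14.4 kb further upstream had only 25 bp of H3K4me3, but a 4202 bp H3K27ac peak of score 84.8 and a Pax5 peak of score 268 lay there, with their middles 13.0 and 13.5 kb upstream of the marked start. An upstream regulatory element of Spi1 is known in this range of distances. A further H3K4me3 region of 975 bp lay 18.0 kb upstream of the marked start, where no start of a protein-coding transcript is annotated, and it overlapped a Pax5 peak of score 279 and H3K27ac peaks of which the higher scored 41.0. The highest Pax5 peak in the window, 618 in score, lay 26.4 kb upstream at the start of the neighbouring gene Slc39a13. Downstream of the marked start there was 1 H3K27ac peak beyond the promoter, of score 5.93, and no further Pax5 peak.

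Spib encodes Spi-B, a relative of PU.1 that is found in B cells and plasmacytoid dendritic cells. A single H3K27ac peak of 12382 bp, of width rank 6 among the 69345 in the list, ran across the whole gene and beyond it on both sides. Under it lay the 4775 bp H3K4me3 region and 5 Pax5 peaks, with scores of 307 in an exon, 428 in an intron, 651 at the start, 1764 at 2.01 kb upstream and 716 at 4.36 kb upstream. The Pax5 peak of score 1764 ranked 97 of 15445, reached into the promoter, and had its middle in an intron near the end of the neighbouring gene Pold1. Its 200 central bases hold 2 GGAA cores and none of the longer motifs, while the peak 4.36 kb upstream, also in a Pold1 intron, holds the Pax5-type core. The sixth Pax5 peak, of score 1603, was at the start of Pold1, 16.6 kb upstream of Spib. All 6 Pax5 scores were above the median of the list.

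Ets1 encodes a factor of lymphocytes that holds back plasma cell differentiation. Its 2 annotated starts differed, in that the outer one at chr9:32443806 had no peak of any of the 3 lists within 1000 bp, whereas the one 59.8 kb downstream carried 2850 bp of H3K4me3, H3K27ac peaks of 76.2 and 73.5 on the sides of the start, and Pax5 of score 348. With 47 H3K27ac peaks and 11 Pax5 peaks, the window had the most Pax5 peaks of the 8, but their scores were low and 3 of the 11 were above the list's median. These 3 were at the marked start (348), 51.8 kb downstream of it in an intron (277) and 78.6 kb upstream (256). The other 8 had scores of 102 to 198, and each of the 11 overlapped H3K27ac. H3K4me3 regions of 725 and 1025 bp lay between the 2 starts, 28.0 and 23.7 kb upstream of the marked start, each under a Pax5 peak (135 and 145). An H3K27ac peak of 12432 bp with score 90.7, of width rank 5 in the list, stood 82.7 kb upstream of the marked start and reached into the flank, where 2 of the Pax5 peaks overlapped it.

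Fli1 and Erg are closely related ETS factors of haematopoietic stem cells and megakaryocytes. Fli1, which lies beside Ets1 on chromosome 9, had its 1 start inside a 3575 bp H3K4me3 region, with H3K27ac peaks of 95.7 and 29.4 and a Pax5 peak of 362. In the introns, 39 further H3K27ac peaks were listed, the widest of 5604 bp and score 42.2 at 32.6 kb from the start. The 159 kb window held 4 Pax5 peaks, beside a median of 1 per window over all genes. The highest, of score 662, was intronic, 68.1 kb downstream of the start. Its 200 bases hold no GGAA on either strand. The other intronic Pax5 peaks had scores of 106 and 107, at the 12.2 and 13.1 percentiles of the list.

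Erg had 6 annotated starts, and H3K4me3 was found at 2 that lie 0.045 kb apart. That region of 3925 bp was joined by an H3K27ac peak of 9899 bp and score 131, of width rank 16, and by Pax5 peaks of 686 and 126. A start 48.3 kb downstream had only an H3K27ac peak of score 5.93. The starts 65.3 and 71.1 kb further upstream had no peak of any list within 1000 bp. The outermost start, 127 kb upstream, had a Pax5 peak of score 181 and neither histone mark, and this was the 1 of the 47 Pax5 peaks that did not overlap H3K27ac. In the introns downstream of the marked start there were 7 Pax5 peaks, of which 5 had scores above the list's median. A group of 4 within 7 kb of each other held the highest, 1136 at 26.7 kb and 801 at 31.4 kb, beside 348 and 191. The window also held the most H3K27ac peaks, 55, of which 21 had scores above the list's median of 8.52.

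The sequence under the highest Erg peak stands apart from the others shown. In the 300 bases around its middle, 53.1% of the bases were the same as the base 59 positions further on, the highest such value of the 47 Pax5 peaks, beside a median of 34.3% for the best shift of 10 to 100 bases over the whole list. A value as high was reached by 112 of the 15445 peaks, or 0.725%. The printed letters show a repeated block that contains ttgcctgagt. The alignment in the study's methods kept reads with up to 3 equally good positions, but it names another Bowtie version than the notes on the deposited lists. The part of the repeat in this score was not tested.

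Elf1 encodes an ETS factor of T cells and B cells. Both of its annotated promoters were marked, the outer one with 2725 bp of H3K4me3, H3K27ac of 32.8 and Pax5 of 321, and the inner one, 34.5 kb downstream, with 2675 bp, H3K27ac of 65.2 and a Pax5 peak of 90.9. The H3K27ac score was thus higher at the inner promoter and the Pax5 score at the outer one, where Wbp4 also begins. Further H3K4me3 regions of 1925, 500 and 400 bp followed within 7 kb of the inner promoter. The highest H3K27ac peak of the window, 90.7 in score, was at the start of the neighbouring gene Sugt1. Of the 5 Pax5 scores, 1 was above the list's median.

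IRF4 and IRF8 act together at the pre-B stage, where they are needed to end pre-B receptor signalling and to begin light chain rearrangement. Their higher-scoring peaks lay in different places. Irf4 had 1 start with 2500 bp of H3K4me3, H3K27ac of score 78.2 over 2591 bp, and Pax5 of score 328, whose 200 central bases in the first intron hold 4 GGAA cores. Its other 9 H3K27ac peaks had scores of 6.66 to 15.0, and its other Pax5 peaks, 12.3 kb upstream and 37.1 kb downstream, had scores of 126 and 111. The downstream one is the only one of the 47 with the PU.1-type letters in the 300 bp around its middle.

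At Irf8 the higher peaks lay away from the promoter. Its promoter had Pax5 of 93.8 and H3K27ac of 24.0, but an intronic Pax5 peak 10.4 kb from the start had a score of 1318, rank 316 of 15445, and overlapped an H3K27ac peak of score 96.8 and 3455 bp. A second Pax5 peak of score 847 lay 11.1 kb upstream and overlapped 2 H3K27ac peaks. A Pax5 peak of score 91.7 in the intron was near the lowest of the list. The 300 bp of H3K4me3 under the intronic peak of score 1318 contrasted with 2125 bp at the promoter. A long gene model, Gm20388, is annotated across the whole Irf8 window on the same strand.

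**Figure D4:**
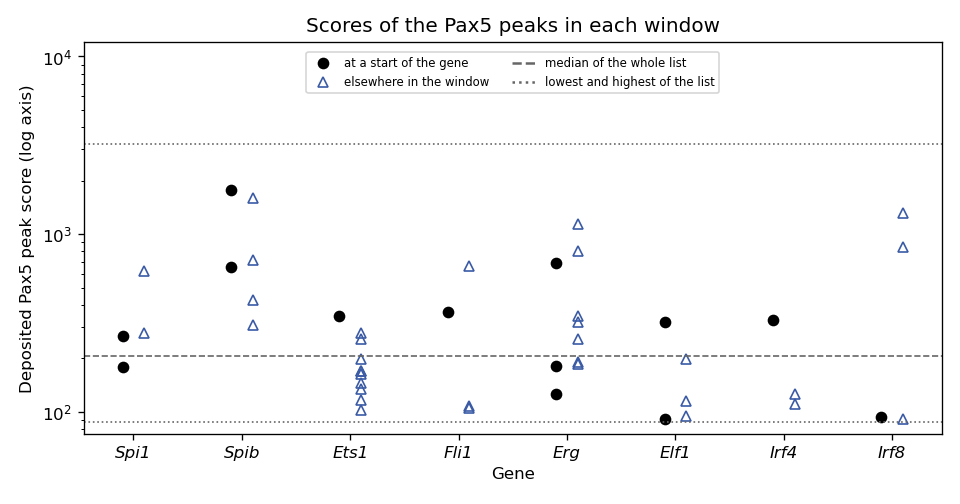
Deposited scores (log axis) of each of the 47 Pax5 peaks by gene, with filled circles at a start of the gene and open triangles elsewhere in the window. Dashed and dotted lines give the median (207) and the lowest and highest scores of the whole list. Every Spib peak is above the median, 3 of 11 are at Ets1, and at Irf8 the promoter peak (93.8) is near the lower dotted line while an intronic peak reaches 1318.

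Pax5 peaks in these windows almost always coincided with H3K27ac. Of the 47, 46 (97.9%) shared 1 bp or more with an H3K27ac peak, beside 79.3% of the whole Pax5 list. Away from any start, of the genes themselves or of their neighbours, it was 31 of 31, beside 67.8% of the 7669 such peaks in the list. H3K27ac also covered more of these windows than of most genes' windows, and the part of that coverage in these shares was not tested. H3K4me3 was overlapped by 25 of the 47 (53.2%), beside 61.0% of the whole list. At a promoter of the genes it was 12 of 13 (92.3%), beside 96.0% of the list's 7776 peaks at any start. Away from any start it was 10 of 31 (32.3%), beside 25.5% of the 7669. In the other direction, 48 of the 220 H3K27ac peaks (21.8%) overlapped Pax5, beside 25.0% of the whole H3K27ac list. At a promoter of the genes it was 13 of 19 (68.4%), beside 63.0% of the list's 17443 peaks at any start. Away from any start it was 30 of 194 (15.5%), beside 12.3% of 51902. Most H3K27ac peaks thus overlapped no Pax5 peak, in the windows as in the whole list. These shares count peaks and not the bp that they cover. By score, 24 of the 47 Pax5 peaks and 104 of the 220 H3K27ac peaks were above the median of their list.

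Within 300 bp, GGAA was about as frequent in the Pax5 peaks of the windows as in the whole list. The longer motifs were found in too few of these peaks to compare. Within 300 bp around the middle of the peak and on both strands, GGAA was present in 45 of the 47 Pax5 peaks (95.7%), beside 95.1% of all Pax5 peaks. GAGGAAGT was present in 1 (2.13%, beside 4.27%), the composite in 1 (2.13%, beside 3.40%) and GCGTGAC in 3 (6.38%, beside 5.71%). GAAA followed by another GAAA after 2 bases, the interferon response type, was in none, beside 2.93% of the list. In the 220 H3K27ac peaks the shares were 97.3% for GGAA, 2.73% for GAGGAAGT, 1.82% for the composite and 5.91% for the paired GAAA, beside 96.8%, 3.08%, 3.33% and 4.48% of all H3K27ac peaks. The GGAA core is contained in the PU.1-type site and in the composite, so these counts overlap. Within 200 bp in place of 300, GGAA was in 93.6% of the 47 Pax5 peaks, beside 87.4% of all Pax5 peaks.

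Other ETS genes were split between marked and unmarked promoters. Of 20 other ETS genes, 10 had H3K27ac at a promoter, 13 had H3K4me3, 11 had Pax5 and 8 had all 3. Over all protein-coding genes the shares were 48.3%, 52.6%, 37.4% and 34.3% in the same order. The same shares are the background for the IRF genes, targets and markers below. Elf3, Elf5, Ehf and Spdef, which are factors of epithelia, Etv2 of the early endothelium, Fev of serotonergic neurons and Spic of red pulp macrophages had none of the 3. Of 6 other IRF genes, 6 had H3K27ac, 6 had H3K4me3 and 5 had Pax5, the exception for Pax5 being Irf5, a factor of inflammatory macrophages. The highest promoter Pax5 scores were those of Irf1 (851), Elk4 (778) and Etv6 (736). Each was between the top promoter values of Erg (686) and Spib (1764), but above the 651 of the peak over the Spib start. Among 13 known targets and partners of these factors, some of which are also lineage markers, 12 had H3K27ac, 13 had H3K4me3 and 11 had Pax5.

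**Figure D5:**
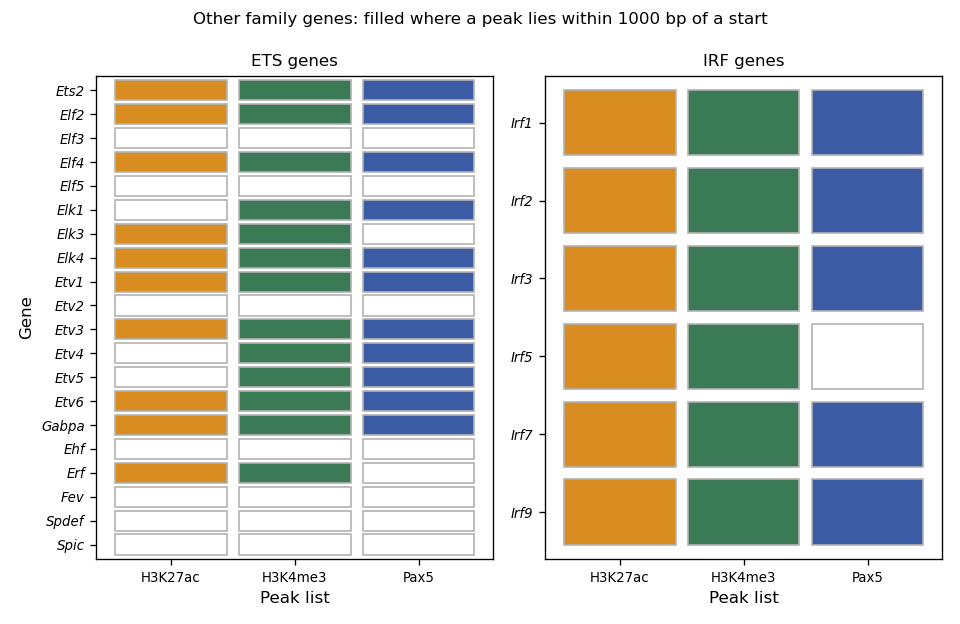
Presence (filled) or absence (white) of a peak of each list within 1000 bp of a start for the 20 other ETS and 6 other IRF genes. The 7 ETS genes with 3 white boxes are Elf3, Elf5, Etv2, Ehf, Fev, Spdef and Spic.

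The label of the cells was checked with marker genes. All 10 B lineage markers had H3K27ac and Pax5 at a promoter, and 8 had H3K4me3, the exceptions being Vpreb1 and Igll1. None of 3 genes of other tissues had a peak of any list there. Of 6 T cell markers, 2 had H3K27ac, Cd2 at 65.6 and Lck at 34.9, and Cd2, which B lineage cells of the mouse also use, had 2325 bp of H3K4me3 and Pax5. Of 6 myeloid markers, 4 had H3K27ac, at scores of 8.01 to 15.7, and 2 had H3K4me3, of 325 and 775 bp, and none had Pax5. Of 5 erythroid and megakaryocyte markers, 2 had H3K27ac, Hbb-b1 at 33.4 and Klf1 at 14.1, Klf1 also had H3K4me3, of 1225 bp, and none had Pax5. Of 2 plasma cell markers, 1 had H3K27ac and 2 had H3K4me3 and Pax5. Since Spi1, Irf8, Fli1 and Erg are also used in myeloid or megakaryocytic cells, a part of such cells in the peaks of these genes was not tested.

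The pattern over the 3 lists was compared between genes as the covered bp, log10(1 + bp), in the promoter, the rest of the gene body and the flanks, which gives 9 values for a gene. By Euclidean distance over these values, the nearest gene was Rac2 for Spi1 (0.482), Chst3 for Spib (0.393), Cyth1 for Ets1 (0.543), Cdk6 for Fli1 (0.492), Gfod1 for Erg (0.521), Chd9 for Elf1 (0.487), Atp2a3 for Irf4 (0.635) and 4632428N05Rik for Irf8 (0.387). The next nearest were Coro7, Pik3ap1, Rasa3, Ptk2b, 2010111I01Rik, Smarca4, 1190002H23Rik and Psap in the same order. The closest pair of members, Ets1 and Irf8, was 0.995 apart, where the median distance to all genes was 8.43 for Ets1 and 8.19 for Irf8. For Irf4 the nearest member was Irf8, at 2.03, beside a median of 7.28 to all genes. Members are few among the genes searched, so the distances to the nearest gene and to the nearest member are not a like comparison.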

How the data were processed

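ChIP-seq peak lists for H3K27ac, H3K4me3 and Pax5 in pre-B cells were used as deposited. Per the methods and the submitters' processing notes, the authors removed duplicate reads and adapters and aligned single-end reads to mm9 with Bowtie. They used MACS 1.4.2. Bowtie was version 0.12.9 in the notes and a later version in the methods. The H3K27ac peak names carry the tag q05, and the peak-calling settings of these lists are otherwise not given in the sources used here. The score of each H3K27ac and Pax5 peak, as deposited by the authors, has no named scale and was used only for ranks within a list. The deposited H3K4me3 list holds other values, 782636 bins of 25 bp without a score, which were joined here across gaps of up to 100 bp. Library depth is unknown, and precision is limited by 1 library per list.

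Positions were matched to GENCODE M1 and the NCBIM37 sequence (mm9), and 0 of 84790 scored peaks ended past a chromosome end. Promoters were set by overlap and other classes by the middle of the peak. The H3K4me3-marked start is the start nearest to the middle of the widest promoter region. Percentiles of covered shares are among all protein-coding genes, those of promoter values among the genes with a peak of that list at a promoter, and those of single peaks within the list. The scripts (Python 3.11.15, numpy 2.4.6) were tested on simulated data.

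The 8 genes, the other lists and the motifs were chosen with earlier results of these data known. Named were all members, for each member the highest peaks and the Pax5 peaks, other ETS and IRF genes without H3K4me3 or with the 3 highest promoter Pax5 scores, and the 2 nearest genes by pattern. Irf5, markers given by name and the neighbouring genes were named after their values were seen. Sequences overlapping an annotated UTR were not printed. Some items of the planned lists are not reported here, and the counts leave them out.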

Additional observations from a re-analysis of the deposited data

How the results depend on the processing

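No paired analysis was possible because there is 1 library for each list. Of 80 comparisons of a summary value with an alternative setting, 66 stayed within the tolerance (1.5 times for counts), and 14 moved. With the higher-scoring 50% of the scored lists, the windows held 104 H3K27ac and 24 Pax5 peaks, the median share covered by Pax5 was 2.52%, Pax5 stood at 5 other ETS and 1 other IRF promoters, and 100% of the Pax5 peaks overlapped H3K27ac. With the middle of the peak in place of overlap, 5 of the 8 genes had H3K4me3 at a promoter, 80.4% of the Pax5 peaks met H3K27ac and 13.7% of the H3K27ac peaks met Pax5. At the outermost start alone, 6, 6 and 7 of the 8 had H3K27ac, H3K4me3 and Pax5, and 7 had promoter Pax5 in the higher-scoring 50%. No share over all genes is given for these settings. With flanks of 50 kb the median share covered was 2.61% for H3K4me3 and 3.56% for Pax5. Keeping only H3K4me3 regions of at least 200 bp, which was chosen after seeing the data, left 25. With 200 bp around the middle, GAGGAAGT was in 2 H3K27ac peaks and the composite in 0 Pax5 peaks.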

Other observations

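Fli1 and Ets1 lie 94.8 kb apart, with their outer starts facing each other, and the interval between them was itself marked. It held 13 H3K27ac peaks that covered 20.4% of it, 8 Pax5 peaks that covered 8.88%, and 1 H3K4me3 region, which is the one at the Fli1 start. Some of these peaks are also counted in the windows of Fli1 and Ets1, among them the 12432 bp H3K27ac peak. The highest Pax5 peak of the interval had a score of 967, rank 711 of the list, above each Pax5 peak inside the windows of Fli1 and Ets1. It lay 85.3 kb upstream of the marked Ets1 start, within the 12432 bp H3K27ac peak. On the other side of each gene, from 20 to 100 kb beyond its end, there was 1 H3K27ac peak for Ets1 and 1 for Fli1.

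Upstream of Irf4, 20 to 100 kb from its start, 23 H3K27ac peaks covered 38.5% of the interval, beside 13.7% of the Irf4 window, and 4 Pax5 peaks had scores of up to 436. The interval holds a start of the neighbouring gene Dusp22, where a Pax5 peak scored 339. With flanks of 50 kb the Irf4 window held 24 H3K27ac peaks in place of 10. Downstream of Irf8 over the same range of distances, 12 H3K27ac peaks covered 8.76%, the highest with a score of 25.0 at 76.7 kb from the marked start. These intervals were examined after the peaks in the windows had been seen, and the distances say nothing of which gene a peak acts on.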
